A study of Homo sapiens with 12 samples.

Results

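Cell death can be started from outside a cell through death receptors. Here 10 genes of that route were followed in control glioblastoma cells and in cells exposed to temozolomide (TMZ), an alkylating drug. They were 7 receptor genes (FAS, TNFRSF10A, TNFRSF10B, TNFRSF10C, TNFRSF10D, TNFRSF1A and TNFRSF21), the adaptor FADD, the initiator protease CASP8 and its regulator CFLAR. They were taken by symbol and Ensembl identifier from the 58174 genes listed in each deposited table, without regard to their values. The mRNA-seq covered U87 (U-87 MG) and U118 (U-118 MG), which are established glioblastoma cell lines, and compared sensitive (control) cells with resistant (aggregation) cells in each. Per the study, both kinds of cells came from cells sorted as CD133- and CD15- and grown in medium with serum and BMP2, and the resistant cells were those that regrew as aggregations after weeks of exposure to TMZ at 50 μM. The 12 libraries form 4 groups of 3. The labels give no separate cultures, so the p-values measure the spread between these libraries, which may be technical, and in bulk RNA fewer cells expressing a gene and less of its RNA per cell cannot be told apart.

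Death receptors are membrane proteins of the TNF receptor superfamily that carry an intracellular death domain. When FAS ligand or TRAIL binds FAS, TNFRSF10A (TRAIL receptor DR4) or TNFRSF10B (DR5), the adaptor FADD is recruited and brings in procaspase 8, which is activated by pairing and then cuts executioner caspases and BID. CFLAR (c-FLIP) resembles caspase 8 but lacks its protease activity, and its long form can limit or assist caspase 8 depending on its amount. TNFRSF10C and TNFRSF10D bind TRAIL without passing on a death signal and are called decoy receptors, while TNFRSF1A (TNF receptor 1) signals first through TRADD and RIPK1, and TNFRSF21 (DR6) is a further death domain receptor.

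The libraries labelled U118 resistant went against their cell line label, and every U118 result below carries this limit. Over 16382 genes they had a Spearman's rho of 0.895 to 0.913 with the U87 libraries but of 0.808 to 0.839 with the libraries labelled U118 sensitive. For comparison, rho was 0.944 to 0.952 between U87 sensitive and U87 resistant libraries and 0.783 to 0.831 between U118 sensitive and U87 libraries. Of 92 genes at 10 TPM or more in all U118 sensitive libraries and under 0.1 TPM in all 6 U87 libraries, 75 were under 1 TPM in all U118 resistant libraries and 3 were at 10 TPM or more. TPM is a transcript level corrected for gene length and scaled to the same total in each library. Of 36 genes with the opposite pattern, 32 were at 1 TPM or more in all U118 resistant libraries. FAF1, whose product binds the intracellular part of FAS, was at 38.3 to 44.9 TPM in U118 sensitive libraries and at most 0.0144 TPM in the other 9. The origin of the cells labelled U118 resistant was not tested, and exposure to TMZ and a different origin of the cells cannot be told apart in U118. For this reason U87 levels are given beside the U118 results of the members.

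Other library features moved with the groups as well. Transcripts of the mitochondrial genome were 12.9 to 16.9% of a U87 sensitive library and 22.2 to 23.7% of a U87 resistant one. In U118 they were 7.42 to 19.7% in sensitive libraries and 13.2%, 29.9% and 26.1% in resistant replicates 1, 2 and 3. U118 resistant replicate 1 also stood apart with 15193 genes at 1 TPM or more, against 13270 and 13545 in the other two. Of 8 glioma markers, 5 in each U87 group and 4 in each U118 group had a mean of at least 1 TPM. VIM, CD44, EGFR and NES were present, while GFAP and S100B, which define astrocytic cells, were at most 0.693 TPM in every library. OLIG2 was at 1.45 to 4.45 TPM in U87, at most 0.0524 in U118 sensitive and 0.570 to 1.05 in U118 resistant libraries. SOX2 was at 0 in all U87, at 0.328 to 0.550 TPM in U118 sensitive and at most 0.0590 TPM in U118 resistant libraries. All markers of leukocytes (5), endothelium (3) and epithelium (3) had a mean under 1 TPM in every group, with summed levels of at most 1.72 TPM in any library. Fibroblast marker genes, which glioma lines also express, summed to 224 to 230.1 TPM in U87 sensitive and 411 to 490.3 in U87 resistant libraries. The U118 sums were 993 to 1205 TPM in sensitive and 232 to 554 TPM in resistant libraries. Mean TPM in U118 sensitive and resistant libraries was 37.1 and 0.523 for DCN, 24.0 and 2.18 for LUM and 81.0 and 0.0880 for PDGFRA. The U87 group means of DCN, LUM and PDGFRA were at most 1.31, 5.59 and 0.191 TPM. The part of these markers in the results was not tested.

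Resistant and sensitive cells were compared within each line with limma on log2(TPM + 1), among genes that reached 1 TPM in 3 or more of the 6 libraries. A call needed a change of 1 or more on the log2 scale and an adjusted p (Benjamini-Hochberg) under 0.05. In U87, 2 of the 9 members tested were called higher and 0 lower. Among all 13845 genes tested in U87, 3.03% were called higher and 7.79% lower. In U118, 3 of 10 members were called higher and 2 lower, where 8.64% and 26.6% of 15527 genes were called in those directions. Of these 5, TNFRSF10A and TNFRSF10D passed the filter in U118 only through the group where they are high, so they had to differ and nothing is read from the count. TNFRSF21 and TNFRSF10D were called higher in both lines. The 7 members of U87 that were not called include 4 with an adjusted p under 0.05 and a smaller change (limma). The median change of all genes tested was -0.24 in U87 and -0.52 in U118 on the log2(TPM + 1) scale, so an unscaled change is read against these values. The median over the members was 0.39 in U87 and 0.45 in U118.

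**Figure D1:**
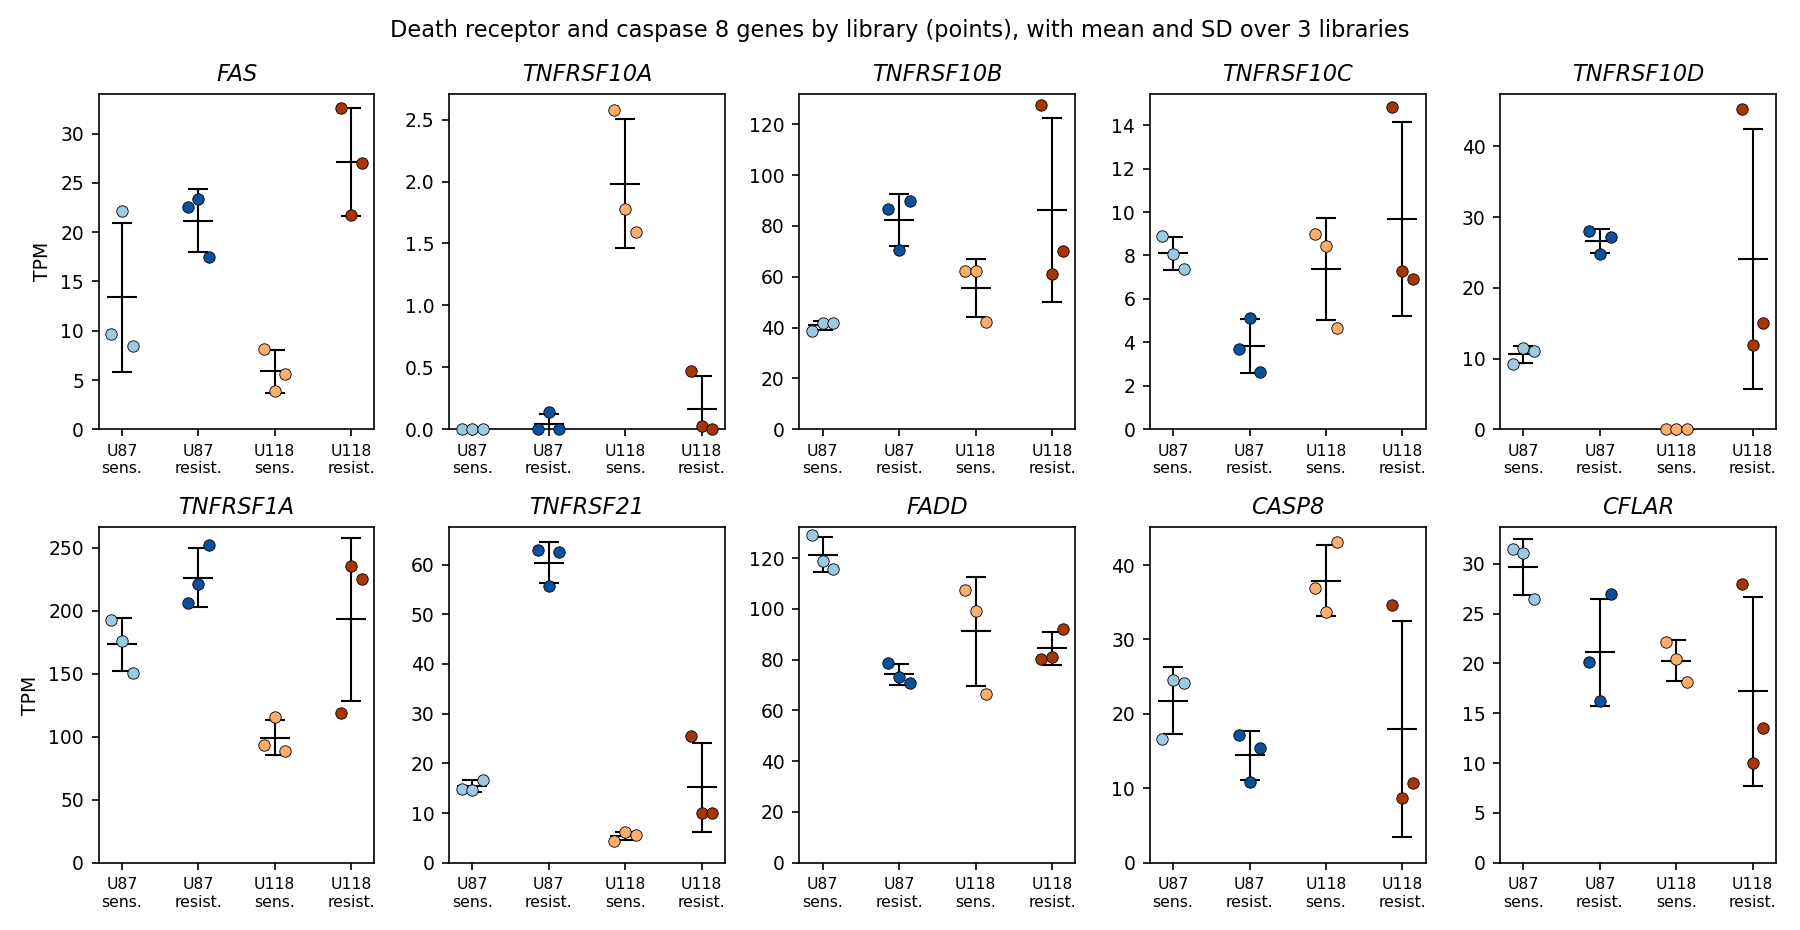
TPM (vertical axes, starting at 0) of the 10 genes in each library (points), with the mean and SD over 3 libraries (bars, cut at 0), in sensitive and resistant cells of U87 and U118. TNFRSF21 and TNFRSF10D in resistant U87 cells lie above every sensitive U87 library, and in several panels U118 resistant replicate 1, the leftmost point of its group, lies away from the other two.

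TNFRSF21, the receptor DR6, had the most clearly separated change in U87. It was at 14.9, 14.6 and 16.7 TPM in the sensitive and at 63.0, 55.6 and 62.6 TPM in the resistant U87 libraries. All 3 resistant libraries lay above all sensitive ones, and the ratio of the group means was 3.93. The change was 1.91 ± 0.10 (SE, n = 3 against 3) on the log2(TPM + 1) scale, with an adjusted p of 7.52e-05 (limma). In U118 the sensitive libraries were at 4.44, 6.11 and 5.55 TPM and the libraries labelled resistant at 25.5, 10.1 and 9.93 TPM. The groups did not overlap, and replicate 1 lay far above the other resistant libraries. U87 sensitive cells, for comparison, had 15.4 ± 1.18 TPM (SD, n = 3). The U118 change was 1.22 ± 0.36 (SE, adjusted p = 0.0197, limma) and 0.80 without resistant replicate 1, which ends the call. It also missed the threshold without U118 sensitive replicate 1, 2 or 3 (adjusted p = 0.0802, 0.0523 and 0.0703, limma).

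The 250 bases before the RefSeq start of TNFRSF21 are shown because this gene was called in both lines, and the 250 bases before the first of 3 RefSeq starts of CASP8 because it was called lower in U118. They are RefSeq sequence of GRCh38.p14, with TNFRSF21 on the minus strand at chr6:47309906-47310155 and CASP8 on the plus strand at chr2:201233213-201233462. In GENCODE 29 CASP8 starts at 201233443, so the end of its stretch lies inside the gene as annotated there. Capitals mark the motifs found on either strand among 7 searched: the GC box (GGGCGG), the AP-1 site (TGANTCA), the E-box (CACGTG), the CRE (TGACGTCA), the TATA box (TATAAA) and the decamers of NF-kappa B and of p53.
TNFRSF21: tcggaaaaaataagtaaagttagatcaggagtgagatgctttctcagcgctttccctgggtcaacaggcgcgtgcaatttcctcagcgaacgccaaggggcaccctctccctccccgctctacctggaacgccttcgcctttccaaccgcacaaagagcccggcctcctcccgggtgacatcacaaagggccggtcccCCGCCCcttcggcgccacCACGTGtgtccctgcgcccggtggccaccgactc
CASP8: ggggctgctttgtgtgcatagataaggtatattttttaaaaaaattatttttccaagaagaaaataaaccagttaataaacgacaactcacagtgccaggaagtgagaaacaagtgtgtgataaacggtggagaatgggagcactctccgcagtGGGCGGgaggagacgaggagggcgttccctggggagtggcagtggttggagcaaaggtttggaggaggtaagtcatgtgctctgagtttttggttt
Each stretch held 1 GC box, a motif present in 42.6% of 35116 windows of that length, and TNFRSF21 also held an E-box, present in 6.34%. The matches did not overlap each other, and the other motifs were not found as these letters in either stretch. The 2 other CASP8 stretches, which are not shown, held no GC box, but one held a TATA box and a p53 decamer (present in 10.7% and 5.57% of windows) and the other an AP-1 site (6.57%). A promoter window was listed for 6 of the 10 genes. FAS had 3, the first of which lies in its annotated first exons, and none is shown. That stretch held 1 GC box and 1 AP-1 site. The next held 2 GC boxes, 1 NF-kappa B decamer (present in 5.21% of windows) and 1 p53 decamer, and the last 1 GC box. A match is a description of letters and was not tested as a binding site.

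FAS, the receptor of FAS ligand, was at 9.62, 22.1 and 8.42 TPM in U87 sensitive and at 22.6, 23.4 and 17.5 TPM in U87 resistant libraries. Sensitive replicate 2 lay within the range of the resistant libraries, so the groups overlapped. The U87 change was 0.73 ± 0.34 (SE, adjusted p = 0.129, limma), and 1.14 (adjusted p = 0.00251, limma) without that library. In U118, FAS was at 8.11, 3.85 and 5.64 TPM in sensitive libraries and at 32.6, 21.7 and 27.0 TPM in those labelled resistant, which did not overlap. The U118 change was 2.06 ± 0.29 (SE, adjusted p = 0.000482, limma). The U118 resistant mean of 27.1 TPM was near the U87 resistant mean of 21.2 TPM, and the tables were scaled separately. The FAS locus (chromosome 10, 88990582 to 89015785, plus strand, GRCh38) overlaps the gene of smooth muscle actin, ACTA2, by 758 bases on the opposite strand. ACTA2 was at 243 to 254 TPM in U87 sensitive, 319 to 349.7 in U87 resistant, 4.19 to 6.11 in U118 sensitive and 115 to 131 TPM in U118 resistant libraries. The strand setting of the counting is not given in the sources used here, so reads of the shared bases cannot be assigned, and their part in the FAS values was not tested.

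TNFRSF10A and TNFRSF10B encode the signalling TRAIL receptors. TNFRSF10A was listed at 0 in 5 of the 6 U87 libraries and at 0.137 TPM in the sixth, resistant replicate 2, and it did not pass the filter in U87. In U118 it was at 2.58, 1.78 and 1.60 TPM in sensitive libraries and at 0.471, 0.0281 and 0 TPM in those labelled resistant. The groups did not overlap, and the gene passed the filter only through the sensitive group where it is high. Its change was -1.36 ± 0.22 (SE, adjusted p = 0.000917, limma), and its size depends on the pseudocount, with -3.40 at a pseudocount of 0.1 and -5.10 at 0.01. The divergent transcript TNFRSF10A-DT, which overlaps it by 656 bases, followed the same split, at 0.721 TPM or more in U118 sensitive and 0 in all U118 resistant libraries, and was at most 0.170 TPM in U87. Another entry of that name was at most 0.0773 TPM in U118 sensitive libraries and 0 in the rest. As the strand setting is not given, reads of the shared bases cannot be assigned to either gene.

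TNFRSF10B was much the more abundant of the pair. It was at 38.8, 41.7 and 42.0 TPM in U87 sensitive and at 86.5, 70.7 and 89.7 TPM in U87 resistant libraries, without overlap. The ratio of means was 2.01, and the change of 0.99 ± 0.11 (SE, adjusted p = 0.000739, limma) lay just under the minimum of 1. The U118 libraries were at 62.2, 62.1 and 42.2 TPM in sensitive and 128, 60.9 and 70.3 TPM in resistant libraries. These groups overlapped, and the change of 0.57 ± 0.31 (SE, adjusted p = 0.145, limma) was not called. Under median-ratio scaling, which brings the median gene of the libraries together, it was called in both lines, at 1.26 in U87 and 1.08 in U118.

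TNFRSF10D and TNFRSF10C encode the decoy receptors. TNFRSF10D, with a truncated death domain, was at 9.20, 11.4 and 11.1 TPM in U87 sensitive and at 28.0, 24.8 and 27.1 TPM in U87 resistant libraries. The groups did not overlap, and it was called higher with a change of 1.26 ± 0.13 (SE, adjusted p = 0.000490, limma). In U118 it was at 0.0490, 0.0245 and 0.0250 TPM in sensitive libraries and at 45.2, 11.9 and 15.1 TPM in those labelled resistant. The change was 4.36 ± 0.43 (SE, adjusted p = 5.20e-05, limma), from a gene that passed the filter only through the resistant group, and its size depends on the pseudocount, with 8.92 at a pseudocount of 0.01. The U118 resistant levels were in the range of the 6 U87 libraries, apart from replicate 1, which lay above it.

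TNFRSF10C, which is held in the membrane by a lipid anchor, was at 8.90, 8.05 and 7.38 TPM in U87 sensitive and at 3.69, 5.11 and 2.65 TPM in U87 resistant libraries. The groups did not overlap, and the change of -0.95 ± 0.21 (SE, adjusted p = 0.0125, limma) was under the minimum size. In U118 it was at 8.98, 8.42 and 4.66 TPM in sensitive and 14.8, 7.28 and 6.90 TPM in resistant libraries, which overlapped (change 0.32 ± 0.35, SE, adjusted p = 0.461, limma). Without resistant replicate 1 the U118 value was -0.0036. As the 4 TNFRSF10 genes are close paralogs, the counting could have split reads between them, and their values are uncertain to that extent.

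Within a library, ratios of TPM do not move with its scaling and are given without a test. The 2 decoy genes together made up 31.8%, 31.8% and 30.6% of the TPM of the 4 TNFRSF10 genes in U87 sensitive and 26.8%, 29.7% and 24.9% in U87 resistant libraries. Within the decoys, TNFRSF10D made up 50.8 to 60.1% in U87 sensitive and 82.9 to 91.1% in U87 resistant libraries, so the ranges did not overlap. In U118 sensitive libraries the decoy share was 9.67 to 12.2% and TNFRSF10D was under 1% of the decoys. In the U118 resistant libraries the decoy share was 31.9%, 24.0% and 23.8%, and TNFRSF10D was 62.1 to 75.3% of the decoys, between the U87 sensitive and U87 resistant ranges.

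The TNFRSF10 genes lie together on chromosome 8 (GRCh38, GENCODE 29) over 205 kb, from TNFRSF10B (23020133 to 23069179, minus strand) through TNFRSF10C (23102590 to 23117437, plus strand) and TNFRSF10D (23135588 to 23164030, minus strand) to TNFRSF10A (23190452 to 23225126, minus strand). Among annotated genes within 200 kb that were tested, LOXL2, a lysyl oxidase of the extracellular matrix, was called higher in U87 (1.46 ± 0.07, SE, adjusted p = 4.91e-05, limma) and in U118 (1.37 ± 0.25, SE, adjusted p = 0.00188, limma). The non-coding CHILL1 and LOXL2-AS1 were called higher in U118 (1.98 and 2.39), with U87 values of -0.84 and 0.33. Both genes passed the filter in U118 only through the resistant group, so nothing is read from these calls. CHMP7, of the membrane remodelling ESCRT machinery, was called lower in U118 (-1.05) and had a U87 value of 0.22. RHOBTB2, R3HCC1 and ENTPD4 were called in neither line. RHOBTB2 overlaps TNFRSF10B by 67 bases on the opposite strand.

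TNFRSF1A (chromosome 12, 6328757 to 6342114, minus strand) was the most abundant of the 7 receptor genes in 11 of the 12 libraries, the exception being U118 resistant replicate 1. It was at 193, 176 and 151 TPM in U87 sensitive and at 206, 221 and 252 TPM in U87 resistant libraries, without overlap, with a change of 0.39 ± 0.12 (SE, adjusted p = 0.0360, limma) under the minimum size. The U118 libraries were at 93.7, 115 and 88.8 TPM in sensitive and 119, 236 and 225 TPM in resistant libraries. The groups did not overlap by a narrow margin at replicate 1, and the change was 0.90 ± 0.29 (SE, adjusted p = 0.0279, limma). Without resistant replicate 1 it was 1.21 and called, as it was under median-ratio scaling (1.41). The adjusted p was 0.0531 to 0.107 (limma) when any other U118 library was left out, keeping the genes of the full fit. With no filter on low values it was 0.0841 (limma). In U87 the adjusted p was 0.0242 to 0.111 (limma) with 1 library left out.

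FADD, the adaptor that links the receptors to caspase 8, was at 129, 119 and 116 TPM in U87 sensitive and at 78.7, 73.3 and 70.6 TPM in U87 resistant libraries. The groups did not overlap, and the change was -0.70 ± 0.08 (SE, adjusted p = 0.000817, limma), under the minimum size. It was -0.46 relative to the median of all genes. The U118 values were 107, 99.3 and 66.6 TPM in sensitive and 80.3, 81.1 and 91.9 TPM in resistant libraries, which overlapped. The U118 change of -0.08 ± 0.23 (SE, adjusted p = 0.787, limma) turned to 0.43 under median-ratio scaling. FADD lies on chromosome 11 (70203163 to 70207390, plus strand), where an antisense gene listed at 0.840 to 5.66 TPM covers 1100 of its bases.

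CASP8, the initiator caspase, was at 16.7, 24.6 and 24.2 TPM in U87 sensitive and at 17.1, 10.8 and 15.4 TPM in U87 resistant libraries. Sensitive replicate 1 lay within the resistant range, and the change of -0.57 ± 0.22 (SE, adjusted p = 0.0797, limma) was not called. The U118 values were 36.9, 33.7 and 43.1 TPM in sensitive and 34.7, 8.64 and 10.7 TPM in resistant libraries. Resistant replicate 1 was inside the sensitive range and the other two were far below it. CASP8 was called lower in U118 at -1.28 ± 0.44 (SE, adjusted p = 0.0367, limma), or at -0.76 relative to the median of all genes. It was -1.87 without resistant replicate 1 (adjusted p = 0.000147, limma). The call was lost when any other U118 library was left out (adjusted p = 0.0853 to 0.139, limma) and under median-ratio scaling (-0.80, adjusted p = 0.0769, limma). The 2 low U118 resistant libraries lay under every U87 library.

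CFLAR lies beside CASP8 on chromosome 2, ending at 201176687, 56.8 kb before CASP8 starts. It was at 31.5, 31.1 and 26.5 TPM in U87 sensitive and at 20.1, 16.3 and 26.9 TPM in U87 resistant libraries, which overlapped narrowly. The change was -0.50 ± 0.19 (SE, adjusted p = 0.0735, limma). In U118 it was at 22.2, 20.5 and 18.1 TPM in sensitive and 28.0, 9.99 and 13.6 TPM in resistant libraries, with replicate 1 above and the other two below the sensitive range. The U118 value of -0.34 ± 0.35 (SE, adjusted p = 0.424, limma) turned to 0.14 under median-ratio scaling and was -0.74 (adjusted p = 0.010, limma) without resistant replicate 1. The long and short forms of CFLAR, which differ in their effect on caspase 8, cannot be told apart from a gene level value.

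**Figure D2:**
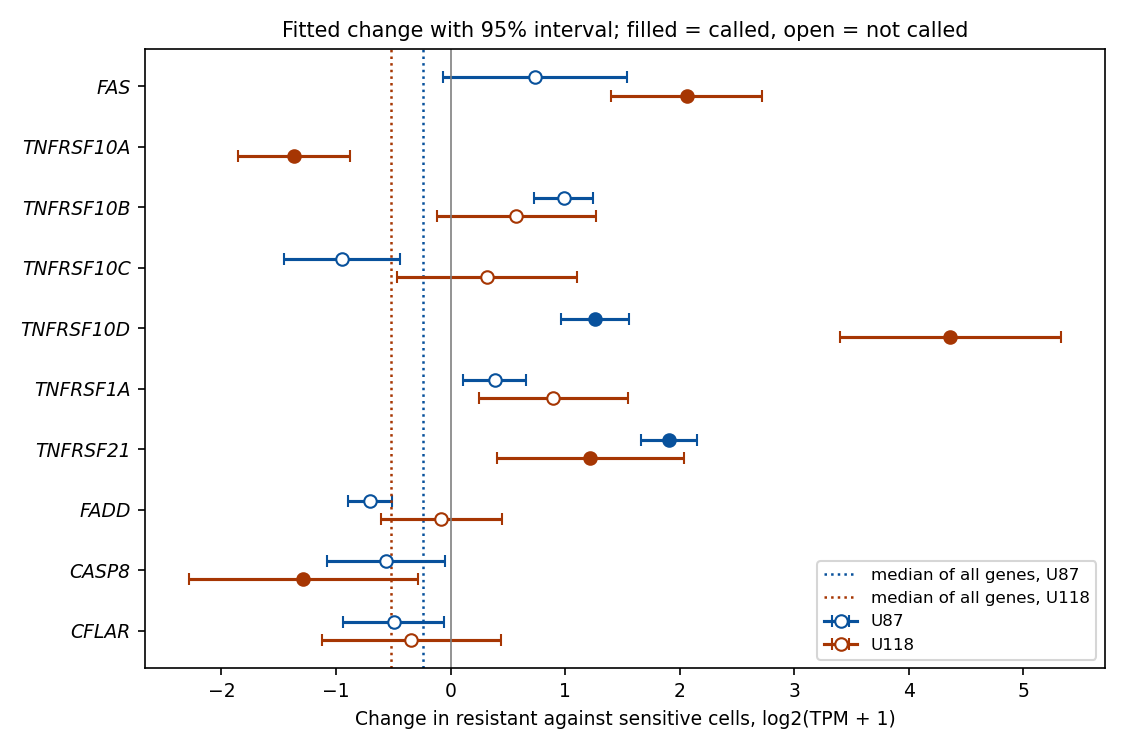
Fitted change (horizontal axis, log2(TPM + 1)) in resistant against sensitive cells with its 95% interval, for U87 (blue) and U118 (brown). Filled points were called, open points were not, and dotted lines mark the median change of all genes tested, -0.24 in U87 and -0.52 in U118. TNFRSF10A was not tested in U87. TNFRSF10D and TNFRSF21 are filled in both lines.

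The balance between these genes was read as ratios within each library. CFLAR per CASP8 was 1.89, 1.26 and 1.10 in U87 sensitive and 1.17, 1.51 and 1.75 in U87 resistant libraries, which overlapped. In U118 it was 0.601, 0.608 and 0.419 in sensitive and 0.807, 1.16 and 1.27 in resistant libraries, which did not overlap, and resistant replicates 2 and 3 lay within the U87 range. TNFRSF10B per CASP8 was 1.70 to 2.33 in U87 sensitive and 5.04 to 6.55 in U87 resistant libraries. The U118 range was 0.979 to 1.84 in sensitive and 3.68 to 7.05 in resistant libraries, so resistant libraries had more of the receptor per caspase 8 in each line. FADD per CASP8 was 4.79 to 7.75 in U87 sensitive and 4.59 to 6.78 in U87 resistant libraries. In U118 it was 2.90, 2.95 and 1.54 in sensitive and 2.31, 9.39 and 8.62 in resistant libraries, with resistant replicate 1 inside the sensitive range and the other two above it. These ratios were not tested, and an exact permutation test of 3 against 3 libraries could not give a two-sided p under 0.1.

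**Figure D3:**
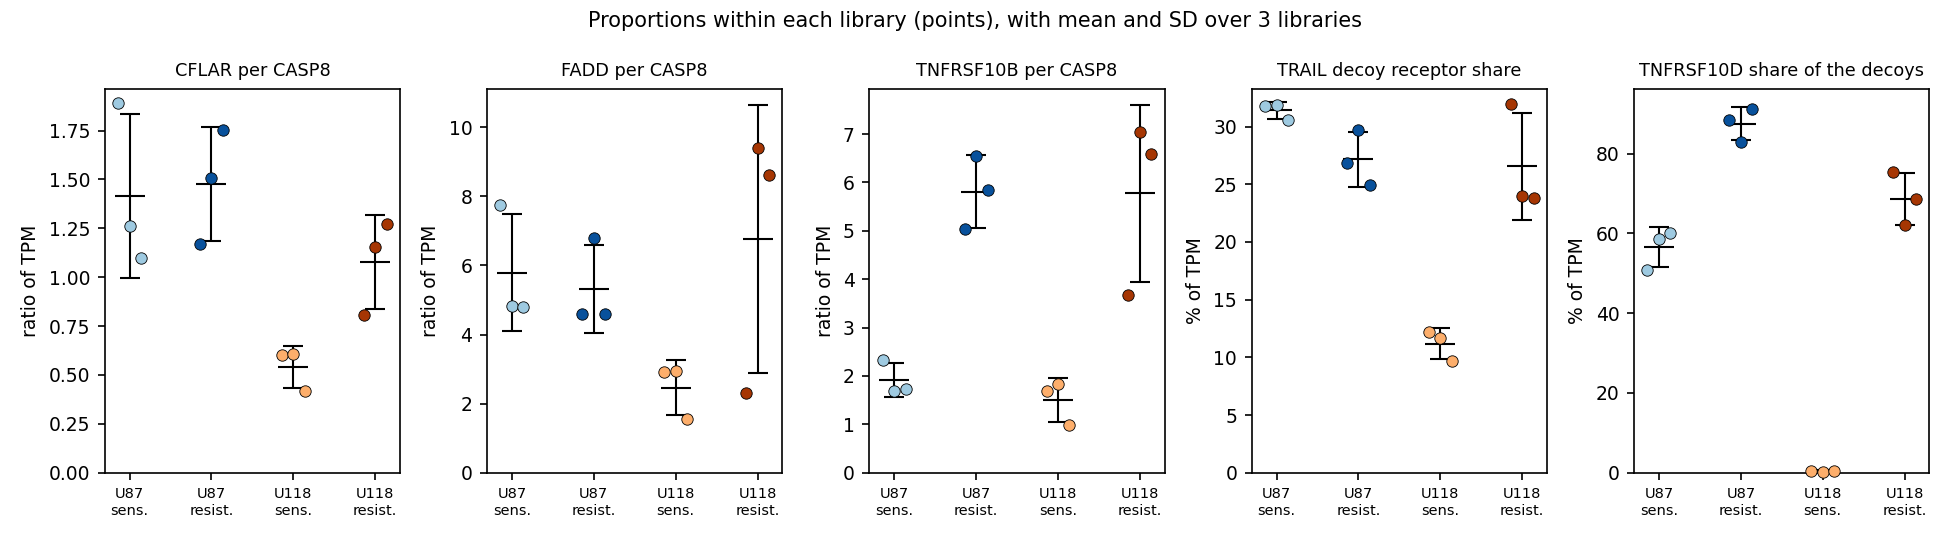
Ratios of TPM and shares of TPM within each library (points), with the mean and SD over 3 libraries (bars), in the 4 groups. TNFRSF10B per CASP8 and the TNFRSF10D share of the decoys are higher in every resistant than in every sensitive library of the same line, while CFLAR per CASP8 overlaps in U87.

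The change was compared between the lines by an interaction over all 12 libraries, as the U118 change minus the U87 change. Of 10 members, 3 were called higher and 1 lower, where 12% and 18.5% of 16382 genes were. TNFRSF10D (3.10 ± 0.51), FAS (1.33 ± 0.47) and TNFRSF10C (1.27 ± 0.44) had the larger value in U118, and TNFRSF10A the lower one (-1.43 ± 0.23, SE). Their adjusted p was 0.000421, 0.0404, 0.0374 and 0.000380 (limma). TNFRSF10A passed the filter only through the U118 sensitive libraries and was at or near 0 in U87, so its value restates the U118 change. TNFRSF10D was at most 0.0490 TPM in U118 sensitive libraries, so the size of its difference depends on the pseudocount. For TNFRSF21 (-0.68, 95% interval -1.57 to 0.20), CASP8 (-0.72, -1.93 to 0.49) and CFLAR (0.15, -0.77 to 1.08) the difference was not called, and the intervals leave room for differences of either direction. The interaction carries the limit on the U118 resistant libraries.

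The 46 other genes of the route, in 8 lists, were mostly not called. Of the 4 ligands, FASLG was listed at 0 in all libraries, TNF was at most 0.227 TPM, LTA at most 0.157 and TNFSF10 (TRAIL) at most 1.30 TPM, so none was tested. Over all lists, 34 genes were tested in U87, of which 1 was called higher and 1 lower, where 3.03% and 7.79% of all genes tested were. In U118, 36 were tested, with 3 called higher and 9 lower, where 8.64% and 26.6% of all genes were. Of those called, FAF1, TNFRSF11B and TNFRSF25 passed the filter in U118 only through the group where they are high. They had to differ, so nothing is read from this count. The median change of the listed genes tested was -0.32 in U87 and -0.52 in U118, beside -0.24 and -0.52 for all genes.

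Among 4 other receptors, TNFRSF25 (DR3) was at 1.55, 0.285 and 0.137 TPM in U118 sensitive and 21.7, 5.40 and 8.03 TPM in U118 resistant libraries (2.82, called), with 0.980 to 3.36 TPM in U87. TNFRSF25 passed the filter in U118 only through the resistant group, and the size of its change depends on the pseudocount. TNFRSF1B (TNF receptor 2), which lacks a death domain, was called higher in U118 (1.11) and was at 12.98 to 14.6 TPM in U87 sensitive and 7.95 to 9.24 TPM in U87 resistant libraries (-0.58, not called). EDA2R was at 1.46 to 3.49 TPM in U87 sensitive and 9.30, 2.21 and 9.53 TPM in U87 resistant libraries, which overlapped. Its U87 change of 1.05 (adjusted p = 0.133, limma) was not called. EDA2R was at most 0.803 TPM in U118 and not tested there. NGFR was at most 0.588 TPM in any library and was not tested. Of the soluble decoys, TNFRSF11B (osteoprotegerin) was called lower in U118 (-3.10), from 11.1 to 14.5 TPM to at most 0.810 TPM, and it was at most 0.233 TPM in U87. TNFRSF11B passed the filter in U118 only through the sensitive group, and the size of its change depends on the pseudocount.

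Of 7 adaptors, 6 were tested in U87 and 0 were called. In U118, TRADD, the first adaptor of TNFRSF1A, was called higher (1.23), and RIPK1 (-1.16), CRADD (-1.53) and FAF1 (-5.43) were called lower. Relative to the median of all genes these changes were 1.76, -0.64, -1.01 and -4.90. FAF1 passed the filter only through the U118 sensitive libraries, and the size of its change depends on the pseudocount. TRADD was at 25.5 to 28.5 TPM in U118 resistant libraries, under its U87 range of 44.8 to 76.2 TPM. CRADD was at 6.04 to 14.8 TPM in U118 resistant libraries and at 8.23 to 11.2 TPM in U87. The U118 resistant RIPK1 levels of 8.06 to 14.7 TPM reached into the U87 range of 7.98 to 11.1 TPM. Of 5 other death effector domain genes, 0 were called in either line. PEA15, which can bind FADD and caspase 8, was the most abundant gene of all lists, at 629 to 676 TPM in U87 sensitive, 480.5 to 518 in U87 resistant, 262 to 298 in U118 sensitive and 513 to 646 TPM in U118 resistant libraries.

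Of 8 substrates and executioners, 0 were called in U87 and 1, the nuclease DFFB (-1.33), was called lower in U118, to 1.48 to 2.90 TPM, beside 0.838 to 2.09 TPM in U87. BID, which carries the signal to mitochondria, had values of -0.37 in U87 and 0.45 in U118, both not called. Of 13 brakes and their antagonists, TNFAIP3 (A20), an enzyme that edits ubiquitin chains, was called higher in U87 (1.16) and lower in U118 (-1.07). Its U118 resistant libraries, at 4.90 to 5.74 TPM, lay between the U87 sensitive (2.02 to 3.03 TPM) and U87 resistant (6.39 to 7.33 TPM) ranges. RBCK1, a subunit of the linear ubiquitin ligase, was called lower in both lines (-1.40 and -1.15), and its U118 resistant libraries, at 43.3 to 53.8 TPM, lay between U87 resistant (23.8 to 32.4 TPM) and U87 sensitive ones (68.8 to 75.0 TPM). BIRC2 (cIAP1) was called lower in U118 (-2.75), from 34.1 to 66.3 TPM to 4.73 to 7.79 TPM, the U87 libraries being at 3.30 to 12.4 TPM. BIRC6 was called lower in U118 (-1.13), to 4.65 to 6.99 TPM, beside 6.31 to 15.4 TPM in U87. Relative to the median of all genes, the U118 changes were -0.55 for TNFAIP3, -0.63 for RBCK1 and -0.61 for BIRC6. Those of BIRC2 and DFFB were -2.23 and -0.81. Of 3 necroptosis genes, RIPK3 and ZBP1 were listed at 0 in all 12 libraries, and MLKL was called in neither line.

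**Figure D4:**
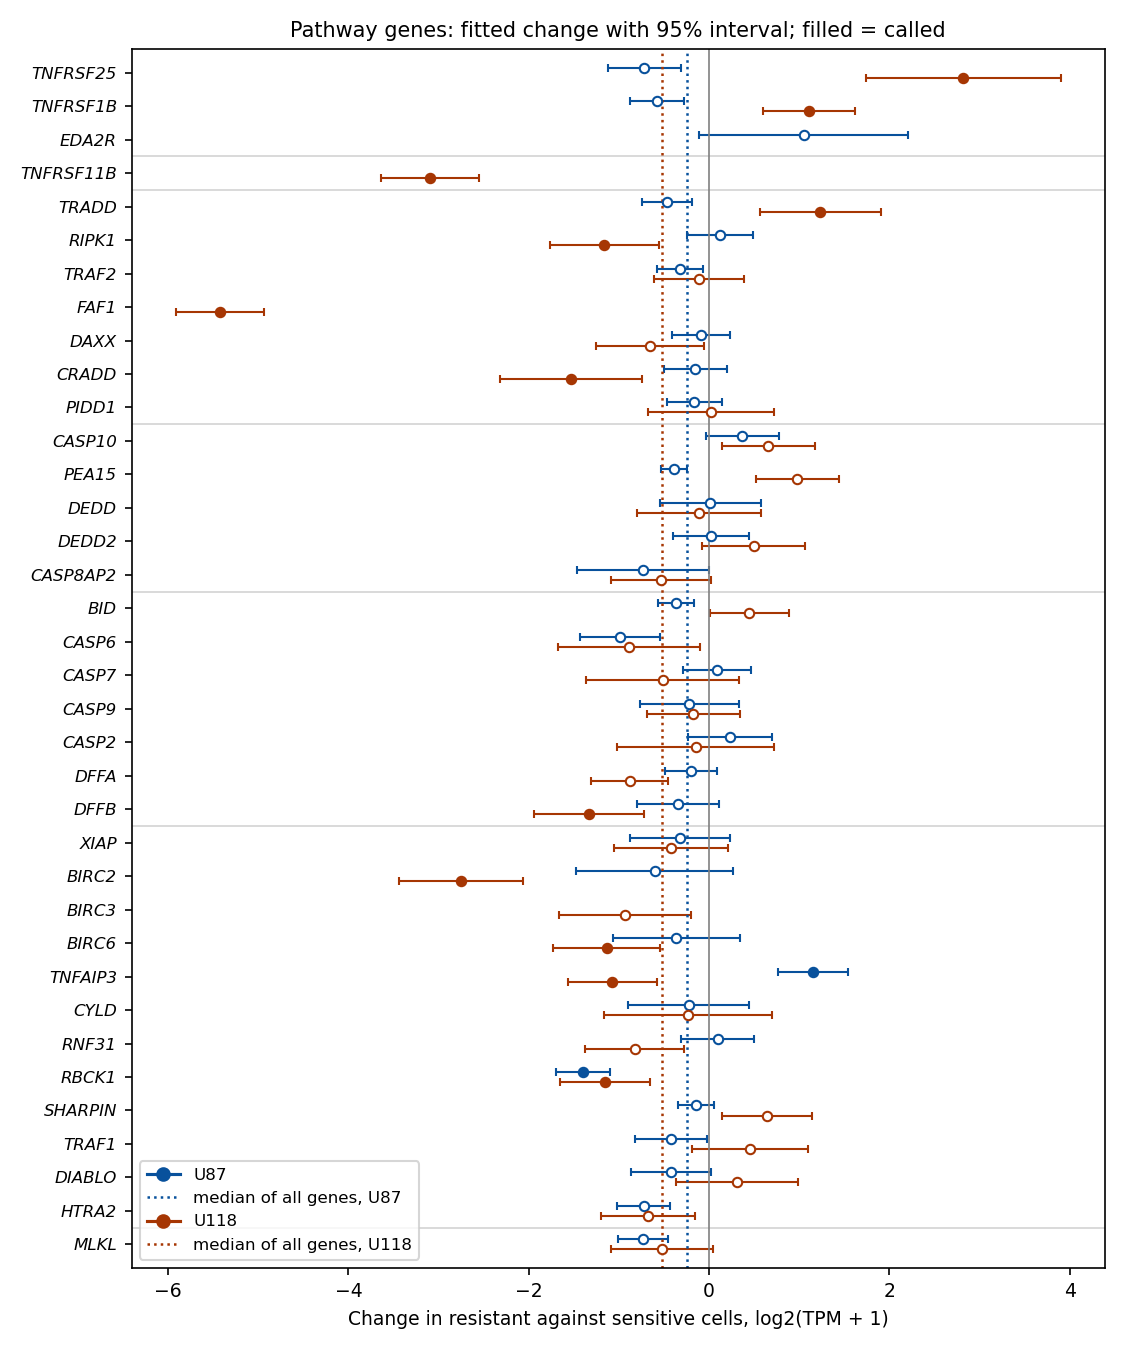
Fitted change (horizontal axis, log2(TPM + 1)) in resistant against sensitive cells with its 95% interval for the pathway genes reported here that passed the filter, in U87 (blue) and U118 (brown). Grey lines separate the lists, filled points were called and dotted lines mark the median change of all genes tested. Filled points are few in U87, where TNFAIP3 is higher and RBCK1 lower, and FAF1 has the lowest value in U118.

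Genes whose log2(TPM + 1) followed a member most closely over the 12 libraries were found by Pearson's r, as a description without a p, since all points share the 4 groups and the offset between the tables. For FAS these were PURPL (r = 0.945) and MBNL2 (0.943). For TNFRSF21 they were LINC02955 (0.981) and LOXL2 (0.976), the neighbour of the TNFRSF10 genes. For TNFRSF10D they were PRR5L (0.994) and ADGRF4 (0.990), for TNFRSF10B SMIM3 (0.980) and ADAMTS14 (0.962), and for CASP8 RBM5 (0.982) and CORO1C (0.978). For TNFRSF10C they were CBLL1-AS1 (0.951) and SLC25A20 (0.936), and for TNFRSF1A GPR137 (0.942) and AGPAT1 (0.941). For TNFRSF10A they were 2 genes without a symbol (0.994 and 0.991). For FADD they were S100A2 (0.955) and RPL21P39 (0.945), and for CFLAR NMRK1 (0.969) and TRAF3IP2-AS1 (0.950).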

How the data were processed

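mRNA-seq of 12 libraries was analysed, 3 each of U87 and U118 sensitive and resistant cells, grouped by the labels. The authors deposited TPM values per gene, 1 table for each cell line. Per the labels, their processing named FastQC 0.11.2, Trimmomatic 0.36, HISAT2 2.0, bedtools 2.26.0 and GRCh38. The quantification tool, annotation and strand setting are not given in the sources used here. TPM keeps no counts, so depth is unknown. Each table holds 58174 genes, positions were taken from GENCODE 29, and 0 value columns were left unused.

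On the log2(TPM + 1) scale, linear models were run in R 4.3.3 with limma 3.58.1 (eBayes with a mean trend), among genes reaching 1 TPM in 3 or more libraries, with Benjamini-Hochberg adjustment over all genes tested. Calls needed an adjusted p under 0.05 and a log2 change of at least 1. The difference between lines was an interaction over 12 libraries. The fits were tested on simulated data. Alternatives were other pseudocounts, filters, scalings, a replicate block, no trend, no minimum change and each library left out.

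Named genes were the 10 members, the pathway and marker lists, overlapping and neighbouring genes within 200 kb, and the 2 most correlated genes of each member. A gene of the pathway lists is counted with its list but not reported here. The members and lists were chosen with earlier results of these data known.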

Additional observations from a re-analysis of the deposited data

Results flagged for a closer look

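The change from sensitive to resistant cells differed between the lines for 4 members by the interaction test (limma, U118 change minus U87 change, log2(TPM + 1) scale). TNFRSF10D differed by 3.10 (adjusted p = 0.000421, limma), with every resistant library above every sensitive one in each line. Its U118 sensitive values were at most 0.0490 TPM, so the size of the difference depends on the pseudocount, with 5.93 at 0.1. TNFRSF10A differed by -1.43 (adjusted p = 0.000380, limma) and was at or near 0 in all U87 libraries. It passed the filter only through the U118 sensitive libraries, so the value restates the U118 change, and its size depends on the pseudocount, with -3.81 at 0.1 and -6.39 at 0.01. FAS differed by 1.33 (adjusted p = 0.0404, limma) and by 0.93 (adjusted p = 0.0639, limma) without U87 sensitive replicate 2. TNFRSF10C differed by 1.27 (adjusted p = 0.0374, limma) and its call was lost with 7 of the 12 libraries left out singly, including U118 resistant replicate 1 (0.94, under the minimum size), and with no filter on low values (adjusted p = 0.0786, limma). All 4 use the libraries labelled U118 resistant, which were nearer to U87 than to U118 sensitive libraries over all genes, and the part of this in the differences was not tested.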

How the results depend on the processing

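Beside 2 members called in U87, 4 were called at pseudocounts of 0.1 and of 0.01 and 6 with no minimum change. With each library left out in turn, 2 to 4 were called. Beside 5 called in U118, 3 were called with no filter on low values, 3 to 5 with a library left out, and 6 each without mitochondrially encoded genes, with no minimum change and under median-ratio scaling, where 5 were higher and 1 lower against 3 and 2. Beside 4 called for the difference between lines, 2 were called with no filter and 2 at a mean of at least 10 TPM, and 2 to 4 with a library left out. These leave-one-out fits kept the genes of the full fit. This was chosen after seeing the data, since applying the filter again to the libraries left drops TNFRSF10A or TNFRSF10D, which are high in 1 group. With the filter applied again the counts were 2 to 4 in U87, 2 to 4 in U118 and 1 to 4 for the difference.

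Values that changed direction were all uncalled. Under median-ratio scaling the U118 change was 0.14 for CFLAR and 0.43 for FADD, and FADD was at 0.12 without mitochondrially encoded genes and between -0.29 and 0.050 with 1 library left out (positive without U118 sensitive replicate 1). With 1 library left out TNFRSF10C in U118 was between -0.0036 (without U118 resistant replicate 1) and 0.50, and under median-ratio scaling it was 0.77 (adjusted p = 0.0315, limma), under the minimum size. The CFLAR difference was -0.011 without U87 resistant replicate 2 and -0.25 without U118 resistant replicate 1, and at most 0.45 with another library left out. The cause was not tested. Without U118 resistant replicate 1 the differences of CASP8 (-1.30) and TNFRSF21 (-1.11) were called.

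Median-ratio scaling moved the split over all genes from 419 higher and 1078 lower to 689 and 528 in U87, and from 1341 and 4134 to 2258 and 2113 in U118, and the median change to -0.000047 and -0.062. With no minimum change 1306 genes were higher and 4107 lower in U87, and with a mean of at least 10 TPM 175 and 630 in U87, 536 and 2152 in U118 and 963 and 1100 for the difference (1972 and 3025 in the full fit). The FAS difference missed the threshold with 8 of the 12 libraries left out singly. With the replicate number as a block (replicate block), 2, 5 and 4 members were called in U87, U118 and the difference. The adjusted p (limma) of CASP8 in U118 fell from 0.0367 to 0.000608, and that of TNFRSF21 in U87 rose from 7.52e-05 to 0.00277. Same-numbered libraries deviated together with r of -0.067 to 0.011 in U87 and 0.051 to 0.139 in U118. Differently numbered libraries had r of -0.058 to 0.077 in U87 and -0.108 to 0.040 in U118. In U118 every same-numbered pair thus lay above every other pair. The labels do not say whether the numbers pair the libraries. The main fits were unpaired, the replicate block was an alternative, and the r values are given without a test of pairing. TPM values keep no counts, so the precision that depth gives is unknown.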
